A study of Homo sapiens and Mus musculus with 6 samples.

Results

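T-box genes encode transcription factors that share a DNA-binding domain, and the promoters of 10 of them, *Tbx1*, *Tbx2*, *Tbx3*, *Tbx4*, *Tbx5*, *Tbx15*, *Tbx18*, *Tbx20*, *T* and *Eomes*, were followed through Promoter Capture Hi-C (CHi-C) of mouse embryonic stem cells (mESCs). A call was taken if the exact symbol of one of the 10 genes stood at either end, with transcript suffixes removed. All 10 genes had a listed bait, 1 *Hin*dIII fragment each on 6 chromosomes in total, among 17157 listed baits, and 313 of the 101841 mESC calls held one of them. CHi-C, in which a Hi-C library is enriched for *Hin*dIII fragments that carry promoters (the baits), was made in 2 biological replicates of mESCs and 3 of the human cell line GM12878, and Hi-C without capture in 1 library of mESCs. The mESCs were J1 cells of the mouse strain 129S4/SvJae, grown on irradiated embryonic fibroblasts that were removed before fixation, and GM12878 is an untreated lymphoblastoid line, an immortalised B cell line from 1 donor. All samples were fixed with formaldehyde, and no other treatment or genotype separated the groups. Each cell type was deposited as 1 set of calls made on its replicates together, so values per replicate were not analysed here, no spread between replicates was set against a difference, and every comparison given here is a description. Contacts carry no expression values, and the cell type labels could not be set against marker genes.

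T-box factors act early and in sequence in the embryo. *T* (Brachyury) and *Eomes* (Eomesodermin) are known for their part in mesoderm and endoderm formation at gastrulation, *Tbx1* for pharyngeal arch and outflow tract development, *Tbx5* and *Tbx20* for the heart, *Tbx2* and *Tbx3* for repression of the chamber programme and for limb patterning, *Tbx4* and *Tbx5* for the hind limb and the forelimb, *Tbx15* for the skin and skeleton, and *Tbx18* for somites, sinus horn and ureter. In pluripotent cells many promoters of such developmental regulators are CpG-rich, are kept under Polycomb repression and are known to meet one another in the nucleus over long genomic distances.

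The results turn on the promoters that contacted another T-box promoter, of which 5 are shown, and on a short fragment beside *Lhx5* that was called from both *Tbx3* and *Tbx5*. Their sequences were read from the mm9 reference, each promoter from 250 bases before to 50 bases from the annotated transcription start on, 5′ to 3′ on the strand of the gene, and capitals mark the CpG dinucleotides.
Tbx5 promoter, chr5:120284422-120284721, plus strand: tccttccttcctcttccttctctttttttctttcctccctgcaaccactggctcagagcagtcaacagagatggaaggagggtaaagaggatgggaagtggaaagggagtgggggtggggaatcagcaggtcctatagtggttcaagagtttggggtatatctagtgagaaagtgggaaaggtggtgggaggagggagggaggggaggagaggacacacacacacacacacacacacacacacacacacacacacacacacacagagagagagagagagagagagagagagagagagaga
Tbx2 promoter, chr11:85645803-85646102, plus strand: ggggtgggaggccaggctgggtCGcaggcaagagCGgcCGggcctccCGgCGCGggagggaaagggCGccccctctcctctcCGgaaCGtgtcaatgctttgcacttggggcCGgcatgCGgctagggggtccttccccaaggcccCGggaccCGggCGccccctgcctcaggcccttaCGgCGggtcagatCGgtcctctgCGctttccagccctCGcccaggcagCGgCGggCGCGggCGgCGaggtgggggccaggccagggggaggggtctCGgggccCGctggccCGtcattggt
Tbx4 promoter, chr11:85699674-85699973, plus strand: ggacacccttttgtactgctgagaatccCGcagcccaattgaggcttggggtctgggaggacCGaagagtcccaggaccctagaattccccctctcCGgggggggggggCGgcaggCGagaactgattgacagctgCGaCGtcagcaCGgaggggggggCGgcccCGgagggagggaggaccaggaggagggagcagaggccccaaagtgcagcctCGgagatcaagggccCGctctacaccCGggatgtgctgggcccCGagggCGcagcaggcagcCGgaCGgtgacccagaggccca
Tbx18 promoter, chr9:87626046-87626345, minus strand: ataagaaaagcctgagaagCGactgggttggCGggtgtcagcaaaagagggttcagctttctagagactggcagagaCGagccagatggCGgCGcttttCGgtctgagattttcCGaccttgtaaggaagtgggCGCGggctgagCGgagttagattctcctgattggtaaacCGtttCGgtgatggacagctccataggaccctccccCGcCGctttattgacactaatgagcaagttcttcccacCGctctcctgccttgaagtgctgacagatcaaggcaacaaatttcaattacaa
Eomes promoter, chr9:118387212-118387511, plus strand: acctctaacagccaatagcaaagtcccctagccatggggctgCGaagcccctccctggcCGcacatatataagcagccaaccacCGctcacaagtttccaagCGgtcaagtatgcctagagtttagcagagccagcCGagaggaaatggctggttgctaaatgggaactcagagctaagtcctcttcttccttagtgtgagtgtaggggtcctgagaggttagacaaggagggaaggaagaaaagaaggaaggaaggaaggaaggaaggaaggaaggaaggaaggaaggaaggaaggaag
shared fragment of Tbx3 and Tbx5, chr5:120885901-120886152, plus strand: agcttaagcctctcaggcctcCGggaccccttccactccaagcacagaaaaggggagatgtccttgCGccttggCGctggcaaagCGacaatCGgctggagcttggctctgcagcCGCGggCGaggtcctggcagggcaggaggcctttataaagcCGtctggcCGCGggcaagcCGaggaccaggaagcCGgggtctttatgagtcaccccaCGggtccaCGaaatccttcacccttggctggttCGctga
These windows were unequal in CpG content. The *Tbx2* window held 28 CpGs, *Tbx4* 17, *Tbx18* 15, *Eomes* 5 and *Tbx5* 0, beside a median of 12 (quartiles 3 and 24) over 22197 windows of 300 bases at protein-coding genes of mm9. The *Tbx5* window, taken at the start of the only listed transcript inside its bait, lay in purine- and CA-rich repeats. Of the other members, *Tbx1* had the highest count, 53, which 0.604% of all windows reached, followed by *Tbx20* with 26, *T* with 17 and *Tbx15* with 14. The *Tbx15* bait carried the start of a non-coding transcript of the gene (chr3:99044054-99044353), and its protein-coding start lay on the unbaited fragment chr3:99056282-99062209. The T-box half-site AGGTGTGA, searched on both strands, was absent from the 9 windows examined, those of all members but *Tbx3*, and stood in 1.1% of all windows.

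The mESC calls of the T-box promoters reached far. Their median distance was 595.9 kb, against 139.1 kb over all *cis*-chromosomal mESC calls, and all 313 were *cis*-chromosomal. Calls over 1 Mb numbered 107, or 34.2% (Wilson 95% interval 29.2 to 39.6%), against 3.37% of all mESC calls, and calls over 10 Mb numbered 45, or 14.4% (10.9 to 18.7%), against 0.681%. Among calls on at least 10 reads, the median distance of the T-box calls was 266.1 kb, against 90 kb over all calls, and 18% of them, 39 calls, were over 1 Mb, against 0.853%. With a score of at least 10, 59 of 150 calls, 39.3%, were over 1 Mb, against 7.53%. The intervals reflect the number of calls alone, and several calls often fall on adjacent fragments and so depend on each other. Pairs of baits can be listed from each side, and the 313 calls were 265 distinct fragment pairs, 237 partner fragments and 79 contact regions if fragments of 1 member within 50 kb of each other are joined. The calls rested on 3 to 357 reads, with a median of 14 (13 over all calls), and their median CHiCAGO score, which rises as the weighted p-value falls and is listed from 5 on, was 9.79 (6.62 over all calls).

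A partner over 1 Mb away was listed for 8 of the 10 promoters, all but *Tbx20* and *T*, against 7.75% of all listed mESC baits, and a partner over 10 Mb away for 7 of the 10, all but *Tbx4*, *Tbx20* and *T*, against 1.40%. At least 20 partner fragments were listed for 6 of the 10, against 8.14% of all baits. A promoter partner on a list of developmental regulators was found for 7 of the 10, all but *Tbx1*, *Tbx20* and *T*, against 4.39% of all listed baits. The members themselves were on that list, so the pairs of T-box promoters count here. The members and the list were chosen with earlier results of these data known, so these shares can partly reflect the choice.

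The promoters differed widely in the number of partners. *Tbx1* had 54 distinct partner fragments, *Tbx3* 50, *Tbx18* 47, *Tbx2* and *Tbx5* 29 each, *Tbx20* 20, *Eomes* 13, *T* 12, *Tbx4* 10 and *Tbx15* 4, against a median of 4 over all listed baits. Only 0.589% of all baits had as many as *Tbx1*, 0.781% as many as *Tbx3* and 0.968% as many as *Tbx18*, whereas 53.6% had as many as *Tbx15*. The order by distance was another one. The median distance of the distinct partners was 2002.4 kb for *Tbx18* and 1268.9 kb for *Tbx3*, between 178.4 and 635.8 kb for *Tbx1*, *Tbx2*, *Tbx5*, *Tbx15*, *Tbx20*, *T* and *Eomes*, and 53.7 kb for *Tbx4*.

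**Figure D1:**
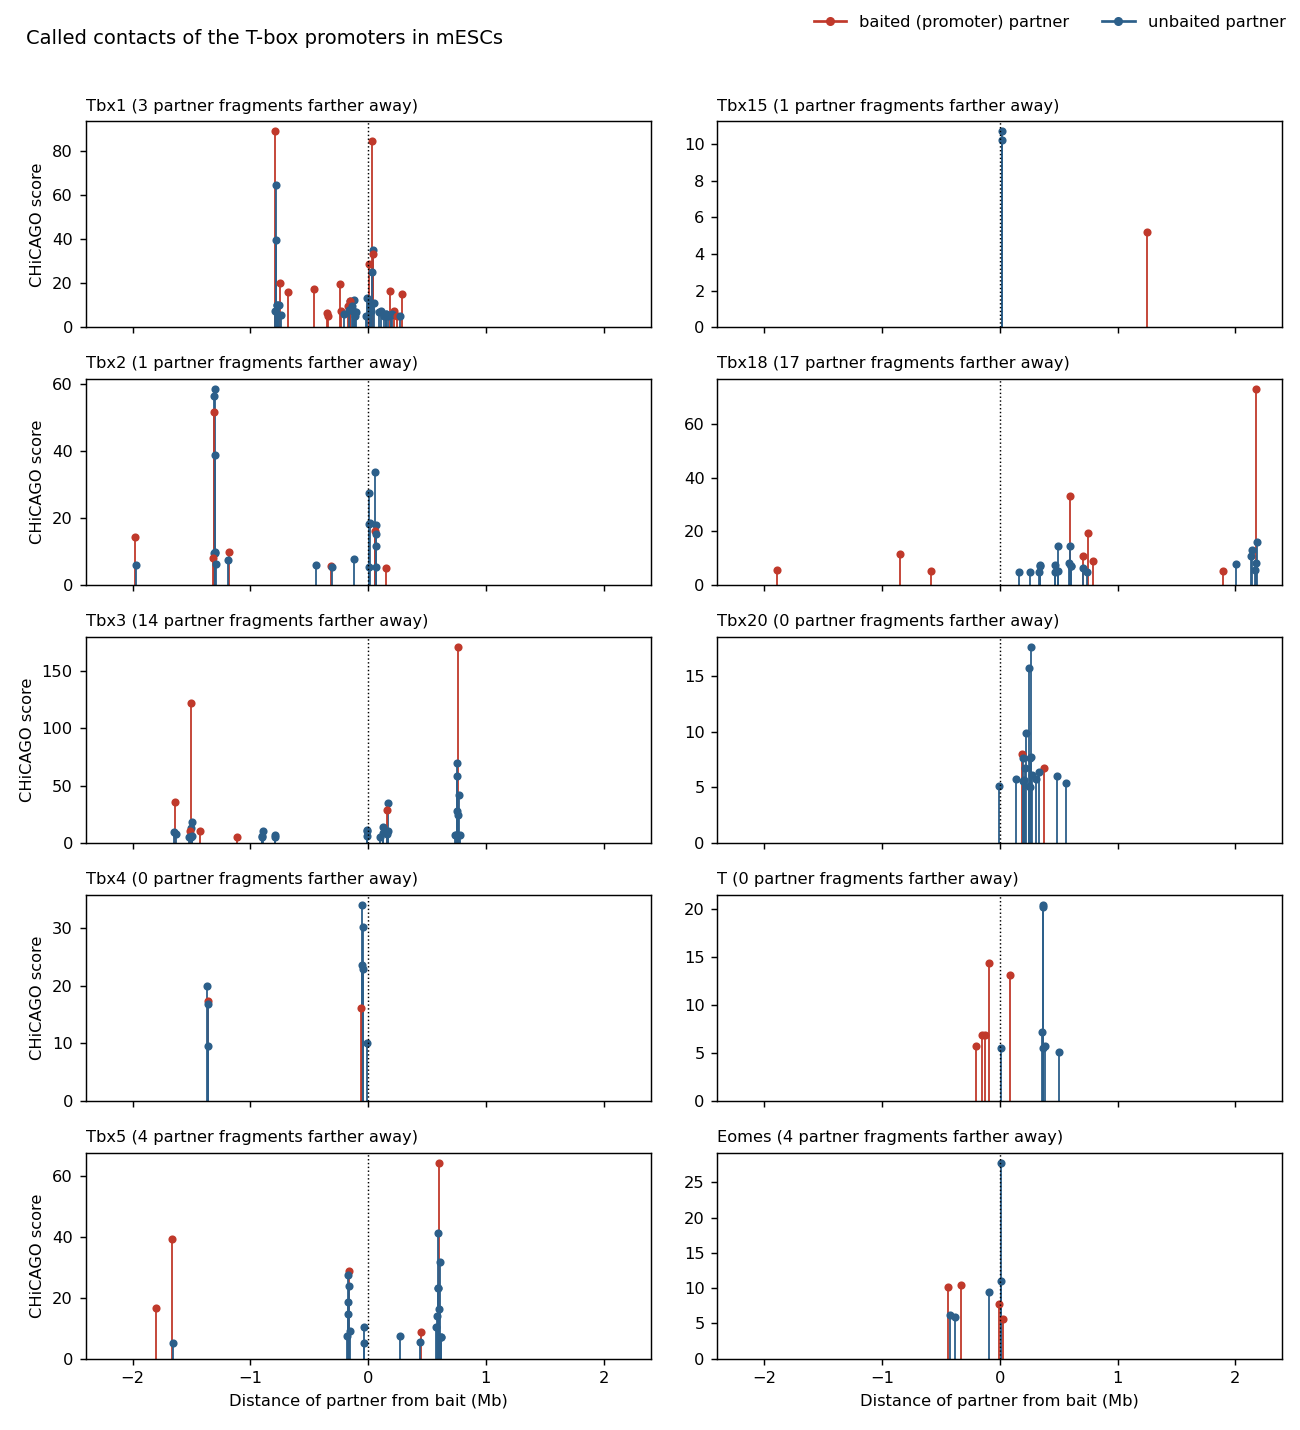
CHiCAGO score (vertical axis, the higher of both directions) of the called partner fragments of the 10 T-box promoters in mESCs, against their distance from the bait in Mb (horizontal axis), with baited partners in red and unbaited partners in blue. Partners beyond the range of the horizontal axis are not drawn and are only counted in the panel titles. *Tbx3* and *Tbx2* had their strongest contacts 0.762 and 1.3 Mb away, *Tbx18* 2.18 Mb away, whereas all partners of *T* and *Tbx20* lay within 0.558 Mb.

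*Tbx3* and *Tbx5*, neighbours 162 kb apart on chromosome 5, both reached *Lhx5*, *Hrk* and *Uncx*. The baits were chr5:120119466-120123930 for *Tbx3* and chr5:120281879-120285542 for *Tbx5*. The highest score of all T-box calls, 170.8, joined *Tbx3* to the promoter of *Lhx5*, a LIM homeobox gene of the developing brain, over 762 kb and on 165 reads. From the *Tbx3* side the same pair had a score of 34.4. *Tbx5* reached *Lhx5* over 600 kb on 73 reads, with scores of 64.3 and 62.6 from its own and the other side. *Tbx3* and *Tbx5* themselves were joined by 77 reads, with 10.9 from *Tbx3* and 28.9 from *Tbx5*.

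The second partner of both was *Hrk*, which encodes an activator of apoptosis, on the other side of the pair. It lay 1.5 Mb from *Tbx3* (68 reads, scores of 63.1 and 122.3) and 1.66 Mb from *Tbx5* (24 reads, 32.6 and 39.4). *Tesc*, the gene of the calcium-binding protein tescalcin, was called from *Tbx3* over 1.64 Mb on 21 reads and from *Tbx5* over 1.8 Mb on 11 reads. *Tbx3* had the higher read number at *Lhx5*, *Hrk* and *Tesc* alike, and lay nearer than *Tbx5* to *Hrk* and *Tesc* and farther from *Lhx5*. Read numbers are not corrected for the capture efficiency of each bait. Over all its partners *Tbx3* had 2156 reads and *Tbx5* 711. The score from the member's own side was lower for *Tbx3* at *Lhx5* (34.4 against 64.3). It was higher for *Tbx3* at *Hrk* (63.1 against 32.6) and *Tesc* (12.8 against 10.7).

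Both promoters also met the homeobox gene *Uncx*, which patterns somites. From *Tbx3*, the *Uncx* bait was 19.9 Mb away and was called on 14 reads with scores of 32.8 and 46.7. Unbaited fragments beside it, each in an exon or intron of *Uncx*, were called on up to 19 reads, and the highest score there, 55.8, belonged to an unbaited intronic fragment (chr5:140026959-140028903, 18 reads). From *Tbx5*, the *Uncx* bait was called on 5 reads with scores of 7.41 and 8.79. Over all mESC calls of more than 10 Mb the median was 5 reads and the median score 9.2.

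In all, *Tbx3* and *Tbx5* shared 21 partner fragments, 42% of those of *Tbx3* and 72.4% of those of *Tbx5*. They included 5 baits, *Hrk*, *Lhx5*, *Tesc*, *Uncx* and *uce*, and 9 of the 21 lay around *Lhx5*, its bait included. The *uce* bait, next to that of *Uncx*, was intergenic and held no annotated transcription start. Another 3 of the shared fragments lay only 8.15 to 12.3 kb from the *Tbx3* bait, and 2 lay between the *Tbx3* and *Tbx5* baits. The fragment chr5:120885901-120886152, printed above with 16 CpGs in 252 bases, lay in an intron of *Lhx5* next to the *Lhx5* bait and was called on 37 reads from *Tbx3* (score 24.5) and on 18 reads from *Tbx5* (16.4). On each of the shared fragments at *Lhx5* the reads of *Tbx3*, uncorrected for capture efficiency, were as many as or more than those of *Tbx5*. On the intergenic fragment chr5:120866353-120871948 both stood at 16 reads.

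**Figure D2:**
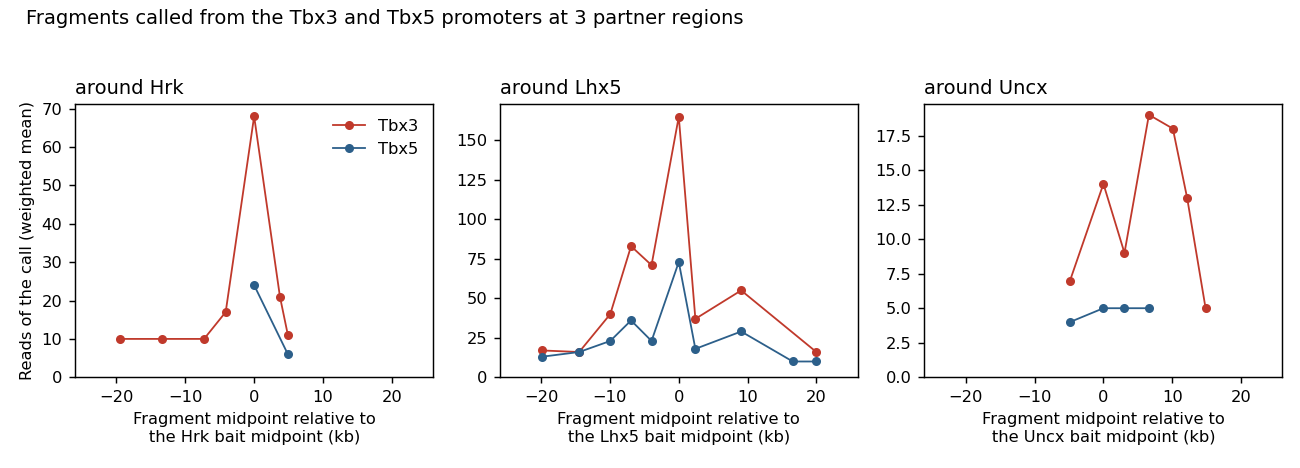
Reads of the calls (weighted mean over replicates, vertical axes with separate scales) from *Tbx3* (red) and *Tbx5* (blue) to fragments around *Hrk*, *Lhx5* and *Uncx*, against the distance of the fragment midpoint from that of the partner's bait in kb. Lines join called fragments, and fragments without a call are not drawn. At *Lhx5* both profiles peaked on the bait, at 165 and 73 reads, and at *Uncx* the *Tbx3* profile was highest beside the bait, at 19 reads.

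The other promoter partners of *Tbx3* were listed from the partner's side only. They were *Rnft2* (1.42 Mb, 9 reads, score 10.5), *Fbxw8* (1.51 Mb, 10 reads, 10.5), *Med13l*, a subunit gene of Mediator (1.11 Mb, 7 reads, 5.55), *6330403L08Rik* (19.3 Mb, 4 reads, 8.03) and the homeobox genes *Barhl2* (13.2 Mb, 4 reads, 5.51) and *Pdx1* (28 Mb, 4 reads, 6.07). Beside *Barhl2*, an unbaited fragment in an exon of that gene was called from *Tbx3* on 8 reads with a score of 13.8. The longest contacts of *Tbx3* were unbaited, 84.4 Mb away at the homeobox gene *Hmx1* (4 reads, score 6.56) and 81.9 Mb away, 4.47 kb from the start of *Msx1* (4 reads, 6.78). The call on the most reads of any T-box promoter was a short one, 357 reads over 8.15 kb, with a score of 10.9. *Tbx5* had 1 more promoter partner, *AC111115.1*, at 453 kb (18 reads, 8.92).

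*Tbx2* and *Tbx4*, neighbours 56.1 kb apart on chromosome 11, shared their far partner as *Tbx3* and *Tbx5* did. *Tbx2* (chr11:85640555-85647901) reached the bait of *Lhx1*, a LIM homeobox gene of the organiser and kidney, over 1.31 Mb on 32 reads, with scores of 42.4 and 51.8. An unbaited fragment 3.41 kb from the start of *Lhx1* (chr11:84340186-84344489) had the highest score of *Tbx2*, 58.6, on 33 reads. *Tbx4* (chr11:85698115-85702525) reached the *Lhx1* bait over 1.36 Mb on 11 reads, with 17.4 and 14.7, and a fragment with another start of *Lhx1* (chr11:84331577-84338206) on 10 reads with 19.9.

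*Tbx2* and *Tbx4* were called with each other on 42 reads, with a score of 7.08 from *Tbx2* and 16.2 from *Tbx4*. They shared 8 partner fragments, 27.6% of those of *Tbx2* and 80% of those of *Tbx4*, of which 4 were at *Lhx1* and 4 in exons of *Tbx2*. *Tbx4* met these exonic fragments of *Tbx2* on 36 to 49 reads, and the highest of its scores, 34.1, was among them (chr11:85650135-85651129). In the other direction *Tbx2* met an unbaited fragment with a *Tbx4* transcription start (chr11:85702526-85707201) on 86 reads with 33.7, higher than its score to the *Tbx4* bait.

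Further promoter partners of *Tbx2* were *Gm12576* (1.98 Mb, 11 reads, higher score 14.4), *AL603708.1* (1.18 Mb, 6 reads, 9.92), *Aatf* (1.32 Mb, 9 reads, 8.03), *Mir1935* (312.4 kb, 14 reads, 5.84) and *AL592465.2* (148.2 kb, 15 reads, 5.07). *Hoxb2*, a homeobox gene of the *Hoxb* cluster, was its only partner over 10 Mb, at 10.6 Mb, with 5 reads and a score of 5.1, just above the threshold. *Tbx4* had no promoter partners but *Lhx1* and *Tbx2*.

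*Tbx18* (chr9:87624289-87627573) had 16 promoter partners, second to *Tbx1* with 18. Of its 47 partner fragments, 26 lay over 1 Mb away, and none lay nearer than 165.1 kb. Its strongest contact was *Rasgrf1*, the gene of a Ras guanine nucleotide exchange factor, over 2.18 Mb on 31 reads, with scores of 67.6 and 73. The neighbouring genes *Zic4* and *Zic1*, zinc finger genes of the neural tube and somites, were met over 3.63 Mb each, on 12 reads (25.4 and 29.4) and 11 reads (22.4 and 28.8). The highest score of an unbaited partner, 49.7 on 18 reads, fell in the same place, on a fragment with further *Zic4* starts (chr9:91275272-91277850).

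Over 10 Mb, *Tbx18* met 5 promoters on 6 or fewer reads each. *Foxl2* and *Sox14*, 11.2 and 12.2 Mb away, had higher scores of 14.7 and 15.5, and *Foxb1*, 18 Mb away on the other side, 15.1, each on 6 reads and listed from both ends. *Onecut1*, 12.9 Mb away, was listed from its own side only, on 4 reads with 5.85. *Eomes*, the gastrulation gene, was 30.8 Mb away and was listed from both ends on 6 reads, with scores of 15.5 and 18.2. It was the longest contact between T-box promoters. Partners within 2.18 Mb included *Nt5e* (597.1 kb, 17 reads, higher score 33.2), *Syncrip* (750.5 kb, 11 reads, 19.5), *Snap91* (849.9 kb, 9 reads, 11.6), *Snx14* (709 kb, 10 reads, 11), *SNORD50.5* (790.2 kb, 7 reads, 9.06), *Tpbg* (1.89 Mb, 4 reads, 5.74) and *AF529169* (1.89 Mb, 5 reads, 5.34).

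*Eomes* (chr9:118386047-118389008) combined short contacts with a few very long ones. Its highest score, 27.8, and its most reads, 134, belonged to a fragment in its own exons 8.41 kb away (chr9:118394270-118397611). Beyond *Tbx18*, it met *Zic1* over 27.1 Mb (4 reads, scores of 8.25 and 8.43) and *Foxl2* over 19.5 Mb (4 reads, 6.91 and 6.94), and these were the 2 partners that *Tbx18* and *Eomes* shared. Within 500 kb it met *Cmc1* (329 kb, 12 reads, 10.4), *Azi2* (437.5 kb, 12 reads, 10.1), *U4.21* (9.23 kb, 88 reads, 7.83) and *Golga4* (26.6 kb, 34 reads, 5.57). Its longest call, 43.7 Mb, rested on 3 reads, had a score of 5.27 and reached an unbaited fragment 8.21 kb from the start of *Onecut1*.

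Some far partners of *Tbx18* and *Eomes* were also called with one another. Among the 11 promoters on chromosome 9 that were *Tbx18*, *Eomes* or their partners over 1 Mb, 18 of the 52 pairs over 1 Mb were called, and of the 33 such pairs without a T-box promoter 6 were, 18.2%. Over all 49 promoters of chromosome 9 with a promoter partner over 1 Mb, 40 of 1156 pairs over 1 Mb, 3.46%, were called. The 6 pairs included *Rasgrf1* with *Zic4* over 1.45 Mb on 19 reads (37.1) and *Zic1* with *Sox14* over 8.52 Mb on 5 reads (11.1). Among 12 such promoters of *Tbx3* and *Tbx5* on chromosome 5, the *uce* bait included, 16 of the 52 pairs were called. Of the 32 without a T-box promoter 2 were, *Hrk* with *Uncx* and with *uce*, both over 21.4 Mb on 5 reads. Those 2 are 6.25%, beside 3.54% of 2092 such pairs over chromosome 5. *Uncx* and *uce* are adjacent fragments, so these 2 pairs depend on each other. *Zic4* and *Zic1* are adjacent too, and *Rasgrf1* with each of them is among the 6 pairs on chromosome 9. Among 7 promoters of *Tbx2* and *Tbx4* on chromosome 11, 6 of 14 pairs were called and none of the 4 without a T-box promoter, beside 1.89% over chromosome 11. These shares over a chromosome include the pairs counted here and were not matched for distance. The pairs with a T-box promoter were chosen for being called, so the counts of pairs without one are the ones that the choice did not fix.

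**Figure D3:**
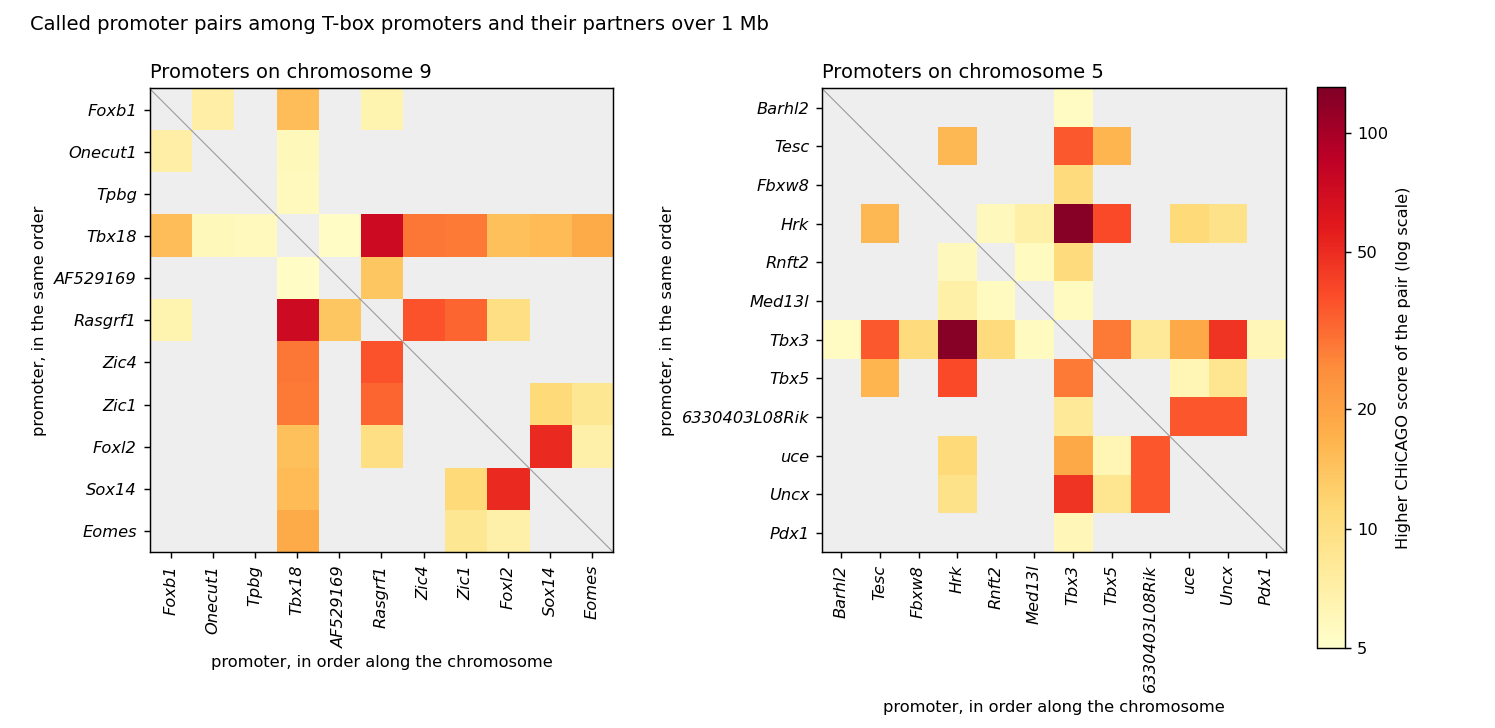
Higher CHiCAGO score of each called promoter pair (colour, log scale, grey where no call is listed) among *Tbx18*, *Eomes* and their promoter partners over 1 Mb on chromosome 9 (left), and *Tbx3*, *Tbx5* and theirs on chromosome 5 (right), in chromosomal order on both axes. *Tbx18* and *Tbx3* form the fullest lines by the choice of promoters, and *Rasgrf1* with *Zic4* (37.1) and *Hrk* with *Uncx* (9.27) are pairs without a T-box promoter.

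*Tbx1* (chr16:18585200-18588626) had the most partners and most of them near. Of its 54 partners 51 lay within 1 Mb, and its 18 promoter partners held no gene of the developmental list. The strongest contact was *Scarf2*, a scavenger receptor gene, over 787.9 kb on 72 reads with scores of 89.2 and 84.2, followed by *Gp1bb*, a platelet glycoprotein gene, over 36.2 kb on 322 reads with 84.7 and 32.5. *Sept5* (42.4 kb, 147 reads, higher score 33.5), *4930588K23Rik* (9.21 kb, 234 reads, 29) and *Car15* (748.6 kb, 17 reads, 20) came next. The unbaited fragment beside *Scarf2* in an exon of that gene (chr16:17801527-17804947) had 40 reads and a score of 64.5. Its contacts over 10 Mb were few, *Sema5b* over 17 Mb on 7 reads (14.8 and 12.7) and a pair of exonic fragments of *Sim2*, a gene of a basic helix-loop-helix factor, 75.5 Mb away on 4 reads each (9.13 and 8.46).

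*Tbx15* (chr3:99039633-99046374) had the fewest partners of the 10 promoters. It met *Fam46c* over 1.25 Mb on 5 reads with a score of 5.2. Fragments within its own gene were called 16.2 kb (37 reads, 10.7) and 21.3 kb away (30 reads, 10.2).

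*T* and *Tbx20* had near contacts only. *T* (chr17:8625164-8631901) had its highest score, 20.4 on 15 reads, on a fragment with a *Pde10a* transcription start 368.9 kb away (chr17:8992888-9001897), and the next, 20.2 on 15 reads, on the intronic fragment beside it. Its promoter partners were *Prr18* (94.1 kb, 24 reads, 14.3), *Pde10a*, a phosphodiesterase gene (89.3 kb, 20 reads, 13.1), *Sft2d1* (128.8 kb, 14 reads, 6.83), *Brp44l*, a mitochondrial pyruvate carrier gene (151.4 kb, 13 reads, 6.82), and the chemokine receptor gene *Ccr6* (199.3 kb, 10 reads, 5.75). *Tbx20* (chr9:24576885-24581308) had 18 of its 20 partners unbaited, and the highest score, 17.6 on 24 reads, was intergenic, 266.1 kb away and 48.7 kb from the nearest gene start (chr9:24843735-24846598). The promoters that met *Tbx20*, *SNORA71.15* at 190.3 kb (15 reads, 7.95) and *Herpud2* at 376.6 kb (12 reads, 6.76), were listed from the partner's side only.

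The kind of partner changed with distance. Among T-box calls under 1 Mb, 67 of 206 had a baited other end, 32.5% (26.5 to 39.2%), against 36.1% of all such mESC calls. Over 1 Mb it was 57 of 107, 53.3% (43.9 to 62.4%), against 47.4%. Both intervals hold the value of all calls. Of the 122 unbaited partner fragments under 1 Mb, 63 were intergenic, 25 overlapped an exon, 24 an intron and 10 a transcription start, and of the 44 over 1 Mb, 11 were intergenic, 13 overlapped an exon, 14 an intron and 6 a transcription start.

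The unbaited partners over 10 Mb numbered 15, and all of them lay within 13.2 kb of the start of a protein-coding gene. These genes were 9, *Barhl2*, *Cdx2*, *Foxb1*, *Hmx1*, *Msx1*, *Onecut1*, *Sim2*, *Sox14* and *Uncx*, each of which encodes a transcription factor. Over all mESC calls of more than 10 Mb, 80.2% of 192 unbaited fragments had the nearest start within 20 kb. The nearest gene was on the developmental list for 10 of the 15 and for 42.7% of the 192.

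The far partners were also richer in CpG. The unbaited partners of T-box promoters over 1 Mb had a median of 22.6 CpGs per kb, against 12.9 for all unbaited partners over 1 Mb, and the baited ones 39.7 against 26.2. Under 1 Mb, the unbaited partners stood at 11.1 against 10.6 and the baited ones at 25.1 against 17.9. Several of the fragments lie side by side at the same gene and share its base composition. AGGTGTGA was held by 30 of the 122 unbaited partners under 1 Mb, 24.6% against 20.2% of all such fragments, and by 3 of the 44 over 1 Mb, 6.82% against 18.7%, with median lengths of 3702.5 and 3321 bp. Among the baited partners, AGGTGTGA was held by 9 of 42 under 1 Mb, 21.4% against 26.2%, and by 9 of 29 over 1 Mb, 31% against 25%. These counts are small and were given no interval, so no difference from all partners is drawn from them.

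The same contacts were looked up in the Hi-C of mESCs without capture. The paper calls it pre-capture Hi-C, so it is not taken as independent of the CHi-C. Several calls can fall in the same bin pair and then count more than once. Of the 206 T-box calls under 1 Mb, 82 lay within a 25-kb bin pair at an FDR under 0.05, 39.8% (33.4 to 46.6%), against 11.6% of all such calls. The share was 62.9% of 35 calls under 50 kb (13.2% over all calls), 35% of 60 from 50 to 200 kb (13.1%), 13.2% of 53 from 200 to 500 kb (7.62%) and 55.2% of 58 from 500 kb to 1 Mb (13.5%). The members were unequal in this. Of the partners under 1 Mb, 19 of 24 of *Tbx3*, 14 of 22 of *Tbx5* and 12 of 15 of *Tbx2* lay in such a bin pair, and 0 of 21 of *Tbx18* and 0 of 20 of *Tbx20*. In the bin pair of *Tbx3* and *Lhx5* the library had 85 read pairs where 2.65 were expected, for *Tbx5* and *Lhx5* 34 where 2.67 were expected, and for *Tbx1* and *Scarf2* 27 where 1.11 were expected.

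Over 1 Mb, where the bins were 1 Mb wide and each holds many fragments, 60 of 107 T-box calls lay within a bin pair, 56.1% (46.6 to 65.1%), against 59.4% of all such calls. Over 10 Mb it was 30 of 45, 66.7% (52.1 to 78.6%), against 81.8%. *Tbx3* with *Uncx* lay in a bin pair of 412 read pairs where 113.7 were expected. *Tbx18* with *Eomes*, *Rasgrf1*, *Foxl2*, *Foxb1* and *Sox14*, and *Tbx2* and *Tbx4* with *Lhx1*, lay in none.

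In GM12878 cells the T-box promoters had fewer and weaker calls. Of the 92929 calls, 32 held one of the 10 symbols, for 5 of the genes, and no score exceeded 9.7. Only 19 of the 32 rested on at least 10 reads. Their median distance was 595.2 kb, near that of the mESC T-box calls, against 173.7 kb over all GM12878 calls. Over 1 Mb lay 9 of the 32, 28.1% (15.6 to 45.4%), against 1.64% of all GM12878 calls, and all 9 were calls of *TBX3*. *TBX3* had 11 calls, *TBX2* 8, *T* and *EOMES* 6 each and *TBX1* 1. No call was listed for *TBX4*, *TBX5*, *TBX15*, *TBX18* and *TBX20*, and the list of calls does not show whether these were captured. In all, 16616 GM12878 baits were listed. The share of all captured baits with a call was not computed, so 5 of 10 genes has no reference value here. Of 11 partners of *TBX3*, 9 lay over 1 Mb away (4.29% of all listed GM12878 baits had such a partner), and the highest score, 9.7 on 11 reads, was intergenic, 1231.4 kb away (chr12:116348106-116357436 of hg19). All partners of *TBX2* lay 381.7 to 682.8 kb away in or at *BCAS3*, with 6.62 as the highest score, and those of *EOMES* 516.9 to 627.3 kb away at *AZI2* and *CMC1*.

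**Figure D4:**
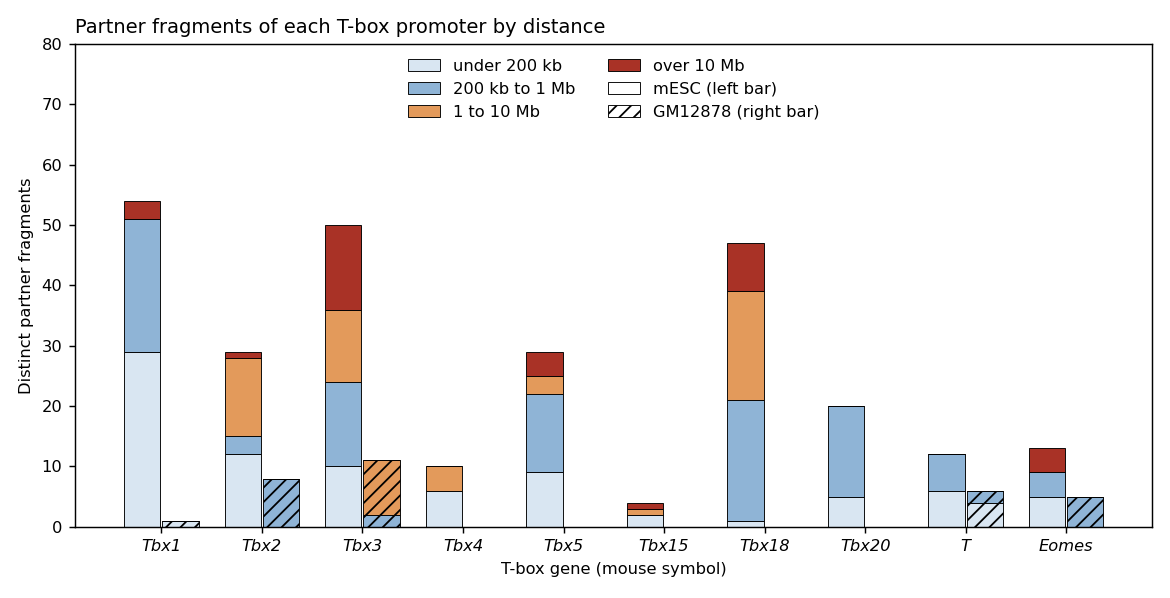
Number of distinct partner fragments of each T-box promoter (vertical axis) by distance class (colour), in mESCs (plain left bars) and GM12878 cells (hatched right bars). *Tbx1*, *Tbx3* and *Tbx18* had 54, 50 and 47 partners in mESCs, and in GM12878 cells no promoter had more than 11 and none had a partner over 10 Mb.

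Few promoter pairs were listed in both species. Of 76 mESC pairs of symbols with a T-box gene, 23 had both symbols listed in GM12878, and 3 of these, 13%, were called there, against 31.2% of 11674 mESC promoter pairs as a whole, matched in the same way. With older symbols, tried for the T-box pairs alone, it was 4 of 25. These counts are small and the pairs were not matched for distance, so no difference from all pairs is drawn from them. The 4 were *Eomes* with *Azi2* (437.5 kb and 10.1 in mESCs, 627.3 kb and 9.31 in GM12878), *Eomes* with *Cmc1* (329 kb and 10.4, 516.9 kb and 5.42), *Tbx3* with *Med13l* (1.11 Mb and 5.55, 1278.2 kb and 5.29), and *T* with *Brp44l*, listed as *MPC1* in GM12878 and matched through its older symbol (151.4 kb and 6.82, 211.4 kb and 6.52). The species, the cell type and the sequencing depth differ together between these sets, so their parts in the difference cannot be told apart.

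Far contacts were listed for other developmental families too, and not for the remaining T-box genes. Of 7 further T-box genes, 5 had a listed bait, with 1 to 5 partners, none over 1 Mb. Among the *Pax* genes all 9 had a bait, with a median of 21 partners, and 6 had a partner over 1 Mb and 4 over 10 Mb. Among 12 LIM homeobox genes, 11 had a bait, with a median of 13 partners, and 8 had a partner over 1 Mb and 6 over 10 Mb. The median over the 10 T-box promoters was 24.5 partners, and the numbers ranged from 4 to 54 for them, from 1 to 53 for *Pax* and from 3 to 57 for the LIM homeobox genes.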

How the data were processed

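The mESC and GM12878 calls came from CHi-C replicates that the authors mapped with HiCUP (Bowtie 1.1.0, per the submitters' processing notes) to mm9 and hg19, combined per cell type and called with CHiCAGO. The score deposited by the authors is the CHiCAGO score, listed from 5 on, and the read number listed beside it is a mean over replicates, weighted and rounded by the authors, so no count test was run. The count of Hi-C read pairs per bin pair was deposited without normalisation, and the expected signal beside it was computed with HOMER 4.7 by the authors. The FDR that the authors deposited is a p-value adjusted by Benjamini-Hochberg, and bin pairs under 0.05 were kept. Bins of 25 kb were used under 1 Mb and bins of 1 Mb beyond, with fragment midpoints inside the listed bins. Columns of the Hi-C lists that hold other values were not used.

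Symbols were split at semicolons, commas and vertical bars, since the mESC list uses the latter separators, and mouse transcript suffixes were removed. Distances are between fragment midpoints. A partner counts as baited if it is a listed bait. All 52640 mESC fragments started and ended at AAGCTT in the mm9 reference. Annotation was GENCODE for the same builds. Of the promoter partners, all over 1 Mb and, for each gene, the 5 with the highest score below it are named, with the strongest, longest and most read calls, except for an item that is not reported here. The members and gene lists were chosen with earlier results of these data known. The parsing and overlap steps were tested on simulated calls, in Python 3.11.15 with numpy 2.4.6 and scipy 1.17.1. The alternatives were score and read thresholds, the browser list, each pair once, the bait end only and other Hi-C thresholds. Intervals are Wilson 95% intervals. Sub-threshold contacts and raw reads were not used here.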

Additional observations from a re-analysis of the deposited data

How the results depend on the processing

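No paired analysis was possible because the lists used here combine the replicates of each cell type in 1 set of calls. The number of T-box promoters with a developmental partner stayed within 1.5 times of 7 throughout (5 to 7 promoters). Values over all mESC calls were recomputed under the score and read thresholds alone, and not for the share with a promoter at both ends. Whether a difference from all calls changed direction was not tested elsewhere. With a score of at least 10, the mESC T-box calls fell to 150, those over 1 Mb to 59, the median distance became 751.2 kb, the share with a promoter at both ends 48%, the share within 25-kb Hi-C bin pairs 65.9%, and no GM12878 call was left (0 calls). With at least 10 reads, the median distance became 266.1 kb, the calls over 1 Mb 39 and the GM12878 calls 19. Under these thresholds the medians over all mESC calls were 109.5 and 90 kb and the shares over 1 Mb 7.53% and 0.853%, against 39.3% and 18% for the T-box calls. Of all mESC calls under 1 Mb, 28.5% and 14.1% then lay within 25-kb Hi-C bin pairs, against 65.9% and 42.7% of the T-box calls. The share of 39.6% with a promoter at both ends became 28.7% in the browser list and with each pair once, since a bait-to-bait pair then counts once, and 22.9% with the member on the bait end only, which also removes pairs listed from the partner's side alone. Taking every listed Hi-C bin pair gave 56.8%. After seeing the data, 3 further results were tried: with at least 10 reads the share of calls over 1 Mb in 1-Mb bin pairs became 69.2%, and joining fragments across 20 or 100 kb gave 99 or 65 contact regions, and older symbols moved the T-box pairs also called in GM12878 from 13% to 16%. Far calls rest on few reads, and read numbers bound what could be called.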

Other observations

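Other genes of the T-box pathways, ligands, partner factors and targets known from heart, limb and mesendoderm, had fewer listed partners than the T-box promoters themselves. Of 39 genes on the list, 36 had a listed bait, with a median of 6.5 partners, and 10 had a partner over 1 Mb and 5 over 10 Mb. Over all listed mESC baits the median was 4 partners, and 7.75% had a partner over 1 Mb and 1.40% over 10 Mb. *Lhx1* contacted *Tbx2* and *Tbx4*. Many partners were listed for *Lhx1* (36), *Fgf8*, the growth factor of limb and pharynx (28), and *Shh*, the limb and neural tube morphogen (26). *Shh* had 12 partners over 1 Mb. Among the heart transcription factors of the list, *Gata4* had 2 partners, *Nkx2-5* 4, *Gata5* 5, *Hand2* 6, *Gata6* 10, *Isl1* 11 and *Hand1* 21, and no call was listed for *Mef2c*. *Gata6* reached 42.6 Mb and *Isl1* 1.85 Mb, and the others stayed within 668.2 kb. The targets *Nppa* and *Gja5* had 12 and 4, all within 592.8 kb. The T-box genes outside the 10 were *Tbx10* (5 partners), *Tbr1* (3), *Tbx21* and *Mga* (2 each) and *Tbx19* (1), and no call was listed for *Tbx6* and *Tbx22*.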
